A study of Homo sapiens with 9 samples.

Results

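The HOX cluster genes and their antisense transcripts were taken from a table of 43424 gene symbols by name: every symbol of a HOXA, HOXB, HOXC or HOXD gene with a number, every symbol of a HOX antisense transcript, and the long noncoding RNAs HOTAIR, HOTTIP and HOTAIRM1. These rules found 55 members, of which 39 code for HOX proteins and 16 are noncoding. The rules use no expression value, but they were written with earlier results of these data known. RNA was compared between OV90, a line that the labels describe as ovarian cancer cells and as sensitive, and 2 lines labelled resistant, OV90CisR1 and OV90CisR2, with 3 libraries per group. All groups were kept in MCDB-105 medium with 15% serum and antibiotics, and the medium of OV90CisR1 and OV90CisR2 also contained cisplatin, so that resistance and exposure to the drug cannot be told apart. The labels state neither the dose nor the number of clones behind each resistant line. They also do not say that replicates came from different cultures; p-values here cover only the spread between the libraries at hand, and that spread may be technical.

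HOX genes encode homeodomain transcription factors that specify position along the head-to-tail axis of the embryo. Within a cluster their order on the chromosome follows the order of their expression: genes at the 3′ end, with low numbers, act early and towards the head, and genes at the 5′ end, with high numbers, act late and towards the tail. Genes with the same number in different clusters are paralogs. In the female reproductive tract of the mouse, Hoxa9, Hoxa10, Hoxa11 and Hoxa13 mark oviduct, uterus, cervix and upper vagina in that order. Active and silent clusters are commonly kept by trithorax and Polycomb complexes, and several noncoding RNAs are transcribed from between the coding genes, often from the opposite strand.

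The libraries held between 5825708 and 7607679 reads, recovered from the deposited normalised values. All values below are these normalised reads unless called reads, and 3 reads correspond to between 2.62 and 3.37 normalised reads. The kit reads the 3′ end of messenger RNA, so values were not divided by gene length, and levels of different genes are set side by side only as reads. In such bulk RNA, fewer cells with a transcript and less of it per cell cannot be told apart. OV90 replicate 3 and OV90CisR1 replicate 3 stood apart: their log2 values correlated with the rest of their groups at 0.955 to 0.957 and 0.941 to 0.942, against 0.979 and 0.980 between the other libraries of those groups. Of 11 ovarian carcinoma markers, only EPCAM and KRT8 passed the filter on low values, PAX8, MUC16 and SOX17 had 0 reads in OV90, and the summed level of the list was 49.4 to 76.5 in OV90, 65.1 to 99.7 in OV90CisR1 and 102 to 129 in OV90CisR2. KRT8, an epithelial keratin, was called higher in OV90CisR2 than in OV90 (log2 fold change 3.32 ± 0.76 (SE), adjusted p = 0.04). Its mean was 10.7 in OV90 and 68.5 in OV90CisR2, so the higher sum in OV90CisR2 mainly reflects this gene. EPCAM was not called there (log2 fold change -0.32 ± 0.25 (SE), adjusted p = 0.57), and all its OV90CisR2 libraries lay below OV90. In OV90 and OV90CisR2, CDH1 had 7 and 1 reads, FOLR1 10 and 4, KRT18 3 and 0, and WT1 4 and 25. The list thus had no common direction. Of 5 leukocyte markers, CD3E and MS4A1 were at 0 in every library, PTPRC had 3, 4 and 1 reads in the 3 groups and CD14 had 0, 4 and 0. CD68, a lysosomal protein of macrophages that is also made in other cells, had 69.9, 58.4 and 24.3 normalised reads in OV90, 134, 89.1 and 70.8 in OV90CisR1 and 38.9, 31.5 and 34.3 in OV90CisR2 and was lower in OV90CisR2 than in OV90CisR1 (log2 fold change -1.42 ± 0.37 (SE), adjusted p = 0.036).

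OV90 expressed the HOXA, HOXB and HOXC clusters and almost nothing from HOXD. A member was called detected when its share of the library was at least 1 CPM in all 3 libraries of a group. By this rule 36 members were detected in OV90, namely 26 coding and 10 noncoding. They included 9 of 11 coding genes of HOXA, 8 of 10 of HOXB, 9 of 9 of HOXC and 0 of 9 of HOXD. Summed over coding genes, HOXB held 14363 ± 1198 normalised reads (SD, n = 3), which was 58.8% of all coding HOX reads. HOXC held 8173 ± 1161 or 33.3%, HOXA 1947.5 ± 338 or 7.92%, and HOXD 3.65 ± 3.08 or 0.0147%. The 9 coding HOXD genes together had 11 reads in the 3 OV90 libraries.

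In both resistant lines the HOXD cluster held more reads than in OV90, and in OV90CisR2 more than in OV90CisR1. The summed coding HOXD level was 72.2 ± 18.5 in OV90CisR1, or 0.414% of coding HOX reads, and 669 ± 35.3 in OV90CisR2, or 3.66%. In reads these were 201 and 2185. The coding HOXB sum was 11231 ± 292 in OV90CisR1 and 10026 ± 178 in OV90CisR2, or 64.0% and 54.7% of coding HOX reads. The coding HOXC sum was 4719 ± 321 and 5911 ± 133, or 26.9% and 32.3%, and the coding HOXA sum was 1520 ± 136 and 1707 ± 89.2, or 8.66% and 9.32% (all SD, n = 3). Detected members numbered 40 in OV90CisR1 and 42 in OV90CisR2, with 2 and 6 of the 9 coding HOXD genes among them.

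**Figure D1:**
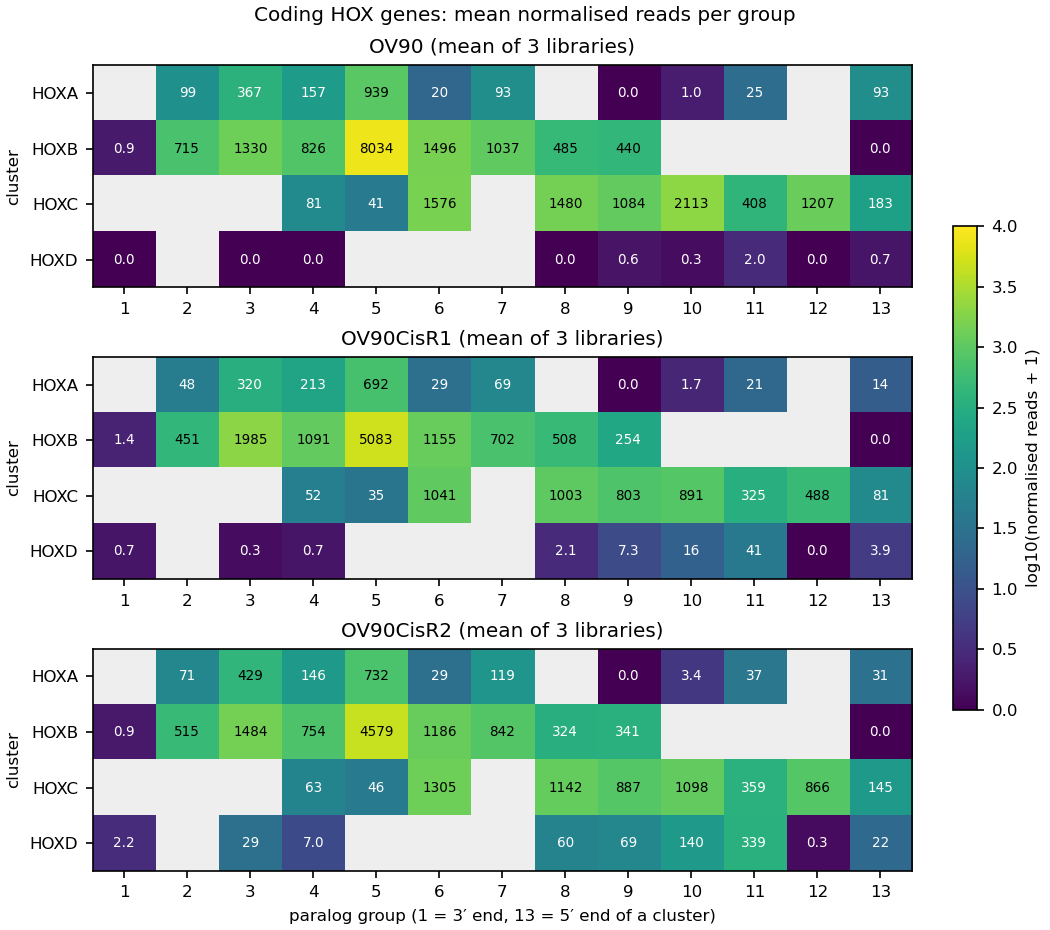
Mean normalised reads of coding HOX genes in OV90, OV90CisR1 and OV90CisR2 (3 libraries each), with clusters in rows and paralog groups 1 to 13 in columns. Colour is log10(normalised reads + 1), the printed numbers are the means, and grey cells mark positions with no gene in that cluster or with no value shown. The HOXD row is near 0 in OV90 and reaches a mean of 339 at HOXD11 in OV90CisR2.

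Of the 55 members, 44 reached 1 CPM in at least 3 of the 9 libraries and were tested, 32 of 39 coding and 12 of 16 noncoding. The other 11 were HOXA9, HOXA10, HOTTIP, HOXB1, HOXB13, HOXB-AS4, HOXC-AS2, HOXD12, HOXD4, HOXD1 and HOXD-AS2, and 3 of them, HOXA9, HOXB13 and HOXB-AS4, had 0 reads in all libraries. Limma was fitted on log2(normalised reads + 1) over all 14233 tested genes and 9 libraries, and a gene was called at a Benjamini-Hochberg adjusted p under 0.05. In OV90CisR1 against OV90, 8.54% of all tested genes were called higher and 7.29% lower, and of the 44 members 3 were higher and 11 lower. In OV90CisR2 against OV90, 2.35% of all tested genes were called higher and 0.941% lower, and 6 members were higher and 3 lower. In OV90CisR2 against OV90CisR1, 5.16% of all tested genes were called higher and 4.9% lower, and 7 members were higher and 1 lower. The median log2 fold change of the 44 members was -0.29, -0.21 and 0.20 in these comparisons. Over all tested genes it was -0.01, 0.00 and 0.03. In the first 2 comparisons, 1 and 2 members at 0 reads in OV90 were also set to the lower bound of their fold change. This could not move the members' medians, since these members lay above them with and without the bound. The first 2 comparisons share the OV90 libraries, so their values are given side by side and not as independent evidence.

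These counts depended on the 2 libraries that stood apart. With both omitted, 24 members were called in OV90CisR1 against OV90, 22 in OV90CisR2 against OV90 and 15 in OV90CisR2 against OV90CisR1, and all 31 calls made with them were kept. With both omitted, 3879, 3646 and 3729 genes of 13936 were called over the whole table.

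**Figure D2:**
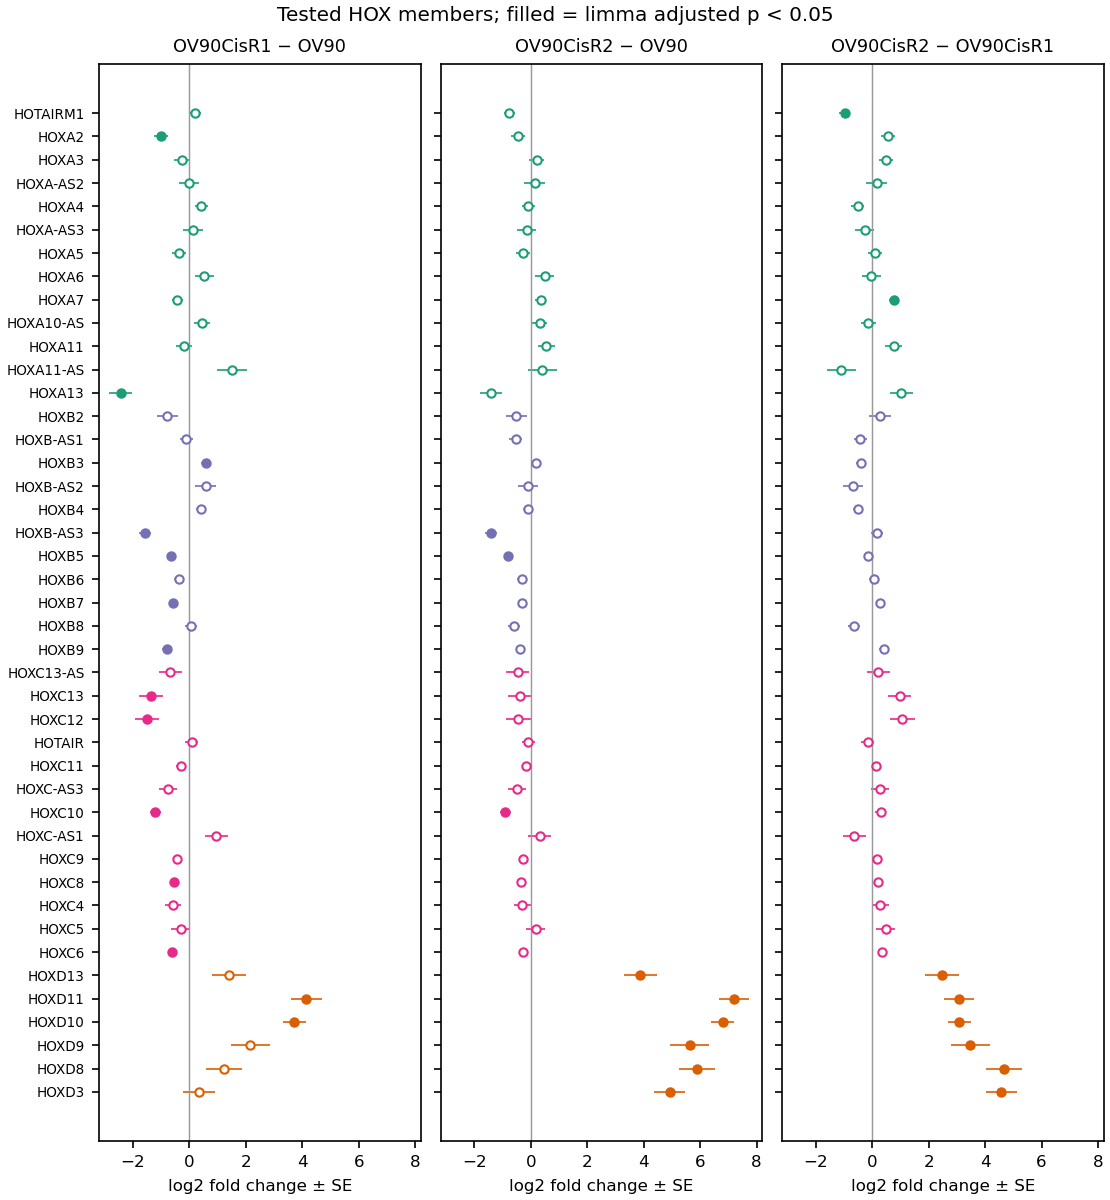
Log2 fold change of 43 of the 44 tested members on the log2(normalised reads + 1) scale, with its standard error, in OV90CisR1 against OV90, OV90CisR2 against OV90 and OV90CisR2 against OV90CisR1, in chromosomal order within HOXA (green), HOXB (violet), HOXC (pink) and HOXD (orange). Filled points have a limma adjusted p under 0.05. The HOXD members lie to the right of 0 in all 3 panels, and 6 of 6 are filled in the middle and right panels. These HOXD members passed the filter on low values only through the resistant lines.

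HOXD lies on chromosome 2, with HOXD13 at chr2:176087487-176095944 and HOXD3 at chr2:176152529-176173098 (RefSeq, GRCh38.p14), on the plus strand. The 6 tested coding genes passed the filter on low values only through the resistant lines, so that the number of them called carries no weight of its own. Their reads show the pattern library by library. In mouse limbs and in the posterior trunk, the genes from Hoxd9 to Hoxd13 act together in patterning digits, forearm, genital bud and kidney.

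HOXD11, at chr2:176107280-176115679, which in the mouse acts with Hoxa11 in forearm and kidney development, had 5.14, 0.973 and 0 normalised reads in OV90, 26.9, 46.7 and 49.4 in OV90CisR1 and 304, 375 and 338 in OV90CisR2. Every OV90CisR1 library was above every OV90 library and every OV90CisR2 library above every OV90CisR1 library. The change was a log2 fold change of 4.14 ± 0.54 (SE; adjusted p = 0.0012) in OV90CisR1 and a log2 fold change of 7.20 ± 0.54 (SE; adjusted p = 1.7e-05) in OV90CisR2. It was the most abundant HOXD member in both resistant lines, in reads.

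HOXD10, at chr2:176116778-176119937, a gene of hindlimb motor neurons in the mouse, had 1.03, 0 and 0 normalised reads in OV90, 10.3, 16.97 and 21.3 in OV90CisR1 and 132, 155 and 133 in OV90CisR2. The groups did not overlap. It rose in OV90CisR1 (log2 fold change 3.71 ± 0.41 (SE), adjusted p = 0.00045) and in OV90CisR2 (log2 fold change 6.79 ± 0.41 (SE), adjusted p = 3.9e-06). OV90 had 1 read in all and OV90CisR1 had 45, a ratio of 49.99 with an exact 95% counting interval of 8.53 to 2018, and OV90CisR2 had 457 reads, a ratio of 437 with an interval of 78.0 to 17282. Such intervals, here and below, cover counting error only, since reads without molecular identifiers are not independent molecules.

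HOXD9, at chr2:176122719-176124937, had 0, 0 and 1.80 normalised reads in OV90, 7.23, 1.06 and 13.5 in OV90CisR1 and 77.8, 70.9 and 58.9 in OV90CisR2. OV90CisR2 lay above both other groups, and OV90CisR1 overlapped OV90. It rose in OV90CisR2 (log2 fold change 5.63 ± 0.69 (SE), adjusted p = 0.00087), a ratio of 107 in reads with an exact interval of 29.3 to 889. In OV90CisR1 it did not pass the threshold (log2 fold change 2.15 ± 0.69 (SE), adjusted p = 0.055). The call in OV90CisR1 was made without OV90CisR1 replicate 2 or OV90 replicate 3, and with edgeR and DESeq2.

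HOXD8, at chr2:176129705-176132695, had 0 reads in all 3 OV90 libraries, 1.03, 5.30 and 0 normalised reads in OV90CisR1 and 54.2, 47.2 and 77.4 in OV90CisR2. It rose in OV90CisR2 (log2 fold change 5.89 ± 0.65 (SE), adjusted p = 0.0004), where its 195 reads against 0 made it at least 62.1-fold higher, with the bound set at 3 reads over the OV90 group. In OV90CisR1 it had 6 reads and did not pass the threshold (adjusted p = 0.21).

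HOXD13, at chr2:176087487-176095944, the last gene of the cluster, which shapes the digits and is mutated in synpolydactyly, had 1.03, 0.973 and 0 normalised reads in OV90, 1.03, 7.42 and 3.37 in OV90CisR1 and 23.5, 21.9 and 21.99 in OV90CisR2. It rose in OV90CisR2 (log2 fold change 3.88 ± 0.59 (SE), adjusted p = 0.0043), and its 73 reads against 2 gave a ratio of 34.9 with an exact interval of 9.31 to 293. OV90CisR1 had 11 reads and did not pass the threshold (adjusted p = 0.12).

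HOXD3, which in the mouse patterns the first neck vertebrae, had 0 reads in all 3 OV90 libraries, 1.03, 0 and 0 normalised reads in OV90CisR1 and 33.8, 24.5 and 29.9 in OV90CisR2. It rose in OV90CisR2 (log2 fold change 4.91 ± 0.56 (SE), adjusted p = 0.00054) and was at least 30.3-fold higher there. OV90CisR1 had 1 read in all.

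The remaining HOXD members were below the filter and were not tested. HOXD4 had 0 reads in all 3 OV90 libraries, 2.07, 0 and 0 normalised reads in OV90CisR1 and 5.12, 10.5 and 5.28 in OV90CisR2, which made it at least 7.32-fold higher in OV90CisR2 than in OV90. HOXD-AS2 had 0 reads in all 3 OV90 libraries, 1.03, 0 and 3.37 normalised reads in OV90CisR1 and 8.19, 12.2 and 4.40 in OV90CisR2, at least 8.60-fold higher in OV90CisR2. HOXD1, a gene of pain-sensing neurons in the mouse, had 0 reads in all 3 OV90 libraries, 2.07, 0 and 0 normalised reads in OV90CisR1 and 4.09, 0 and 2.64 in OV90CisR2. HOXD12 was seen only in OV90CisR2 replicate 3, at 0.880 normalised reads. The 3′ end of HOXD4 lies inside the HOXD3 gene, so that reads of this pair may not have been told apart.

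**Figure D3:**
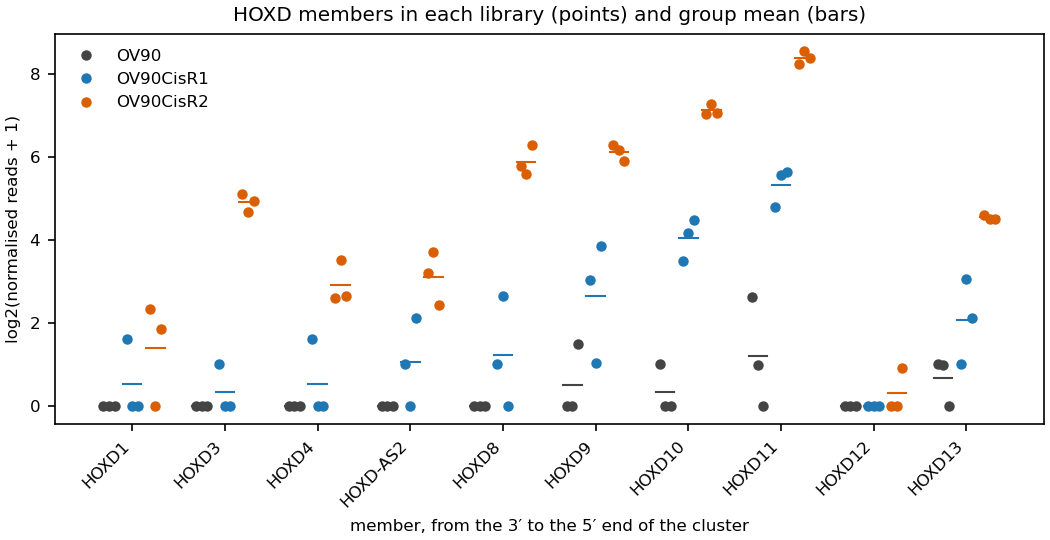
HOXD members from the 3′ to the 5′ end of the cluster, with log2(normalised reads + 1) on the vertical axis, 1 point per library and a bar at each group's mean. OV90 points do not exceed 5.14 normalised reads, OV90CisR1 points rise above them at HOXD10 and HOXD11, and OV90CisR2 points are the highest at every member except HOXD1 and HOXD12, where the groups overlap.

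Other transcripts of the HOXD cluster were read from a list of cluster transcripts outside the naming rules, of which 11 were in the table and 3 were tested. These 3, HAGLR, HAGLROS and MIR10B, passed the filter on low values only through OV90CisR2, so that the number of them called carries no weight of its own. HAGLR, a long noncoding RNA antisense in the cluster, had 0 reads in all 3 OV90 libraries, 1.03, 2.12 and 0 normalised reads in OV90CisR1 and 7.16, 17.5 and 11.4 in OV90CisR2. HAGLROS, whose gene lies inside HAGLR on the opposite strand, had 1.03, 0 and 0 normalised reads in OV90, 0 in all 3 libraries in OV90CisR1 and 12.3, 15.7 and 10.6 in OV90CisR2, and reads of this pair may not have been told apart. MIR10B, the gene of a microRNA beside HOXD4, had 0 reads in all 3 OV90 libraries, 1.03, 3.18 and 1.12 normalised reads in OV90CisR1 and 30.7, 38.5 and 34.3 in OV90CisR2. The kit reads the 3′ end of messenger RNA, so these reads do not measure the mature microRNA. All 3 rose in OV90CisR2 against OV90, with log2 fold changes of 3.62, 3.44 and 5.14 and adjusted p = 0.012, 0.011 and 0.00016, and in OV90CisR1 against OV90 limma, edgeR and DESeq2 called 0 of 3, with 1 at an unadjusted p under 0.05. The genes that flank the cluster were not called. LNPK, on the HOXD13 side, had 108, 95.4 and 145 normalised reads in OV90, 128, 113 and 67.4 in OV90CisR1 and 113, 130.3 and 96.8 in OV90CisR2. MTX2, on the HOXD1 side, had 221, 154 and 163 normalised reads in OV90, 163, 141 and 53.9 in OV90CisR1 and 171, 116 and 186 in OV90CisR2. EVX2, the homeobox gene next to HOXD13, had 0 reads in OV90, 0 in OV90CisR1 and 1 in OV90CisR2.

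The levels of the resistant lines were set against each other along the cluster. Scaled for library size, the OV90CisR1 level was 17.5% of the OV90CisR2 level for HOXD13 (exact 95% interval 8.38 to 33.2), 11.9% for HOXD11 (9.76 to 14.5), 11.5% for HOXD10 (8.24 to 15.6) and 10.4% for HOXD9 (6.22 to 16.4). It was 3.58% for HOXD8 (1.30 to 7.93) and 1.22% for HOXD3 (0.0307 to 6.99). The members with few reads at this end had higher values, 17.2% for HOXD-AS2 (4.38 to 49.4), 10.1% for HOXD4 (1.16 to 40.9) and 33.2% for HOXD1 (3.37 to 174), whose wide intervals overlapped those of all the others. The reads of HOXD-AS2, HOXD4 and HOXD1 are too few to tell whether the values follow an order along the cluster. The intervals of HOXD8 and HOXD3 lay below those of HOXD10, HOXD11 and HOXD13 and overlapped that of HOXD9. The difference between positions was not tested, since the grouping was chosen after the values were seen. HOXD9 to HOXD13 made up 88.0%, 93.2% and 100% of coding HOXD reads in the OV90CisR1 libraries and 84.7%, 88.3% and 82.7% in the OV90CisR2 libraries, and these ranges overlap.

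**Figure D4:**
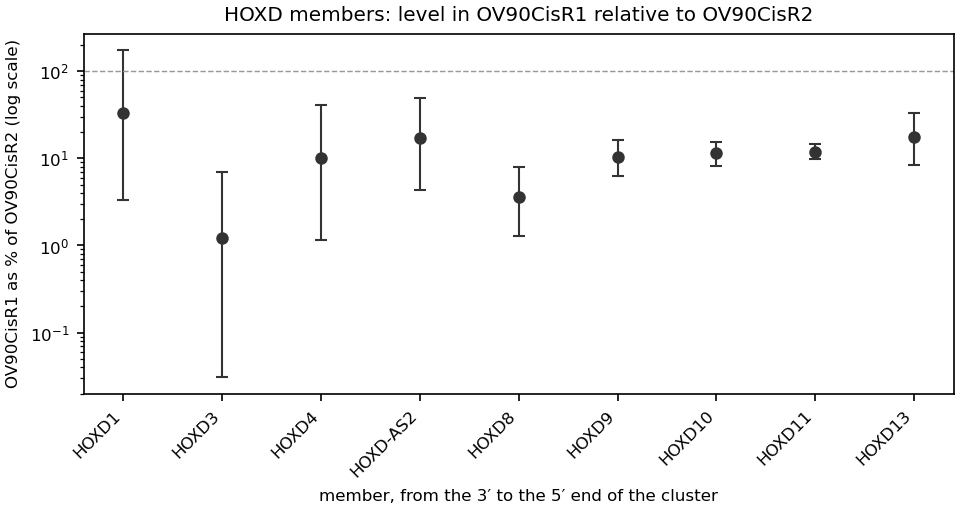
Level of HOXD members in OV90CisR1 as a percentage of the level in OV90CisR2, from summed reads scaled for library size, with exact 95% counting intervals on a logarithmic axis. The dashed line marks equal levels. HOXD9 to HOXD13 lie between 10.4% and 17.5%, HOXD8 at 3.58% and HOXD3 at 1.22%, HOXD-AS2, HOXD4 and HOXD1 lie at 10.1% to 33.2% with wide intervals, and only the interval of HOXD1 reaches the line.

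In the direct limma comparison all 6 tested HOXD genes were higher in OV90CisR2 than in OV90CisR1. HOXD3, HOXD8, HOXD9 and HOXD13 passed the filter on low values only through OV90CisR2, so that this number carries no weight of its own. HOXD8 had a log2 fold change of 4.66 ± 0.65 (SE; adjusted p = 0.0019) and HOXD3 had a log2 fold change of 4.57 ± 0.56 (SE; adjusted p = 0.00097). HOXD9 had a log2 fold change of 3.48 ± 0.69 (SE; adjusted p = 0.011) and HOXD10 a log2 fold change of 3.08 ± 0.41 (SE; adjusted p = 0.0014). HOXD11 had a log2 fold change of 3.06 ± 0.54 (SE; adjusted p = 0.0063) and HOXD13 a log2 fold change of 2.48 ± 0.59 (SE; adjusted p = 0.025). The calls of HOXD9 and HOXD13 were lost without any 1 of the OV90CisR2 libraries, that of HOXD13 also without OV90CisR1 replicate 1, and with a pseudocount of 0.1 those of HOXD9, HOXD11 and HOXD13 were lost. Because the HOXD genes were near 0 in OV90, the size of their fold changes against OV90 moved with the pseudocount. From a pseudocount of 5 to one of 0.1, HOXD10 in OV90CisR1 went from 1.96 to 6.12 on the log2 scale, and in OV90CisR2 HOXD3 went from 2.77 to 8.19 and HOXD8 from 3.66 to 9.19. With a pseudocount of 5, HOXD9 and HOXD13 in OV90CisR2 came to 3.74 and 2.28, and HOXD11 in OV90CisR1 to 2.74.

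The 250 bases before the RefSeq starts of HOXD11, HOXD10 and HOXD8 are shown because these genes rose together in OV90CisR2 from next to no reads in OV90, and they are printed 5′ to 3′ on the plus strand of GRCh38.p14. Capitals mark matches, on either strand, to TGATTNAT, a composite motif of HOX proteins and their cofactors, to CCAAT or to TATAAA, which do not overlap here.
HOXD11, chr2:176107030-176107279: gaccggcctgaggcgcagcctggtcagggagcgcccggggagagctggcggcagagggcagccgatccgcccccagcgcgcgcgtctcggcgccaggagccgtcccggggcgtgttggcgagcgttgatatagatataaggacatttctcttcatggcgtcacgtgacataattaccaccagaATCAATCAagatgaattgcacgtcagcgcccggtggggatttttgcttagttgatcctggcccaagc
HOXD10, chr2:176116528-176116777: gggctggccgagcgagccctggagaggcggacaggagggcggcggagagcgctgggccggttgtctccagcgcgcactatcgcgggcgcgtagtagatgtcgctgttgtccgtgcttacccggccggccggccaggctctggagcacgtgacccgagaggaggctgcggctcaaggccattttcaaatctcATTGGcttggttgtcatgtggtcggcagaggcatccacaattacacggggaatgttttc
HOXD8, chr2:176129455-176129704: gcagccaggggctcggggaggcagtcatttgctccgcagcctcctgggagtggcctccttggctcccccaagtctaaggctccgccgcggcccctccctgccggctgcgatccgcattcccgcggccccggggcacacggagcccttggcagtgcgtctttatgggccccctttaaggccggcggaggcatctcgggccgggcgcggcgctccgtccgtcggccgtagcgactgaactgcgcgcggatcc
All 3 windows are rich in G and C, at 61.6%, 64.0% and 72.4%, with 23, 23 and 28 CpG dinucleotides. RefSeq promoters were found for 28 members, as 36 windows. Over all 34941 windows the median was 58.0% G and C with 11 CpG, over the 36 member windows 54.8% with 13.5, and over the 9 HOXD windows 61.6% with 21. HOXD11 holds a TGATTNAT match on the minus strand that begins 67 bases before the start, HOXD10 holds a CCAAT match on the minus strand 59 bases before it, and HOXD8 holds no match in this window. TGATTNAT was found in 2 of the 36 member windows and in 2.49% of all windows, CCAAT in 22 of 36 and 32.0%, and TATAAA in 6 of 36 and 10.8%. Some genes have several windows, and a match describes these letters only.

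Outside HOXD, 38 members were tested. In OV90CisR1 against OV90, 26 of these had an estimate below 0 and 11 were called lower, with 1 called higher, HOXB3, beside 7.29% of all tested genes called lower and 8.54% higher. In OV90CisR2 against OV90, 28 had an estimate below 0 and 3 were called lower, HOXB-AS3, HOXB5 and HOXC10, with 0 called higher by limma, edgeR or DESeq2 and 0 at an unadjusted p under 0.05, beside 0.941% of all tested genes called lower and 2.35% higher. All 9 coding HOXC genes had an estimate below 0 in OV90CisR1, and 8 of 9 in OV90CisR2, under the deposited scaling as under TMM and quantile scaling, edgeR and DESeq2.

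HOXB lies on chromosome 17 on the minus strand, and HOXB5, at chr17:48591257-48593779, had the most reads of all members in each group. HOXB5 acts in the enteric nervous system and blood vessels and is used as a marker of some blood stem cells in the mouse. It had 8550.4, 8728 and 6825 normalised reads in OV90, 5261, 5051 and 4936 in OV90CisR1 and 4714, 4444 and 4578 in OV90CisR2. Neither resistant line overlapped OV90, and it fell in OV90CisR1 (log2 fold change -0.65 ± 0.13 (SE), adjusted p = 0.0083) and in OV90CisR2 (log2 fold change -0.80 ± 0.13 (SE), adjusted p = 0.0054). The call in OV90CisR1 was lost with only the groups compared (adjusted p = 0.0502), and that in OV90CisR2 was kept in all 23 alternatives. Between the resistant lines HOXB5 was not called (adjusted p = 0.47).

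HOXB-AS3, a long noncoding RNA at chr17:48590420-48606414 that runs antisense across HOXB5 and HOXB6, had 614, 571 and 367 normalised reads in OV90, 179, 200.4 and 137 in OV90CisR1 and 204, 189.8 and 174 in OV90CisR2. The transcript fell in OV90CisR1 (log2 fold change -1.57 ± 0.21 (SE), adjusted p = 0.0015) and in OV90CisR2 (log2 fold change -1.41 ± 0.21 (SE), adjusted p = 0.0038), with no overlap with OV90. The 3′ ends of HOXB5 and HOXB6 lie inside HOXB-AS3, and how the counting treated strand is not given in the sources used here, so reads of these genes may not have been told apart. HOXB6 itself, known in the mouse for limb bud and skin expression, had 1541, 1792 and 1156 normalised reads in OV90, 1022, 1356 and 1087 in OV90CisR1 and 1243, 1142 and 1173 in OV90CisR2, and its difference from OV90 passed the threshold in neither line (adjusted p = 0.16 and 0.37).

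HOXB7, reported in the biology of breast cancer and cell motility, had 1054, 1088 and 969 normalised reads in OV90, 777, 718 and 612 in OV90CisR1 and 836, 885 and 803 in OV90CisR2. All OV90CisR1 and OV90CisR2 libraries were below all OV90 libraries. It fell in OV90CisR1 (log2 fold change -0.57 ± 0.13 (SE), adjusted p = 0.015), a call lost without OV90 replicate 1 or 2 and with only the groups compared. In OV90CisR2 its adjusted p was 0.24. HOXB9, which with its paralogs shapes the thoracic skeleton and mammary gland in the mouse, had 444, 476 and 398 normalised reads in OV90, 290.3, 242 and 229 in OV90CisR1 and 289, 413 and 322 in OV90CisR2. It fell in OV90CisR1 (log2 fold change -0.79 ± 0.17 (SE), adjusted p = 0.011), a call kept in all 23 alternatives, and the OV90CisR2 libraries overlapped OV90 (adjusted p = 0.27). HOXB8, which in the mouse affects grooming behaviour through microglia, had 472, 569 and 413 normalised reads in OV90, 513, 381 and 630.3 in OV90CisR1 and 276, 407 and 288 in OV90CisR2, with adjusted p = 0.89 and 0.17.

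At the 3′ end of the cluster HOXB3, which acts in hindbrain and pharyngeal development, had 1031, 1433 and 1525 normalised reads in OV90, 1822, 1819 and 2314 in OV90CisR1 and 1476, 1661 and 1316 in OV90CisR2. It rose in OV90CisR1 (log2 fold change 0.59 ± 0.17 (SE), adjusted p = 0.04), where all 3 libraries exceeded all OV90 libraries. The call was lost without any 1 of the libraries except OV90 replicate 3, with adjusted p up to 0.14. Its 3′ end overlaps HOXB-AS1. HOXB4, a gene that expands blood stem cells when overexpressed, had 681, 778 and 1019 normalised reads in OV90, 1221, 1149 and 905 in OV90CisR1 and 773, 746 and 743 in OV90CisR2, and did not pass the threshold (adjusted p = 0.11 and 0.79). It was called higher in OV90CisR1 without OV90 replicate 3, without OV90CisR1 replicate 3 and without both. The 3′ end of HOXB4 lies inside the HOXB3 gene, on the same strand. HOXB2, of the hindbrain, had 847, 547 and 749 normalised reads in OV90, 592, 553 and 209 in OV90CisR1 and 599.7, 319 and 627 in OV90CisR2, with OV90CisR1 replicate 3 far below the others of its group and adjusted p = 0.17 and 0.53. HOXB1, at the 3′ end, had 3, 4 and 3 reads in the 3 groups.

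The antisense transcripts HOXB-AS1 and HOXB-AS2 were not called in any comparison. HOXB-AS1 had 152, 162 and 205 normalised reads in OV90, 153, 135 and 193 in OV90CisR1 and 103, 158 and 100.3 in OV90CisR2. HOXB-AS2 had 21.6, 23.4 and 15.3 normalised reads in OV90, 22.7, 24.4 and 48.3 in OV90CisR1 and 18.4, 23.6 and 14.1 in OV90CisR2. The 3′ ends of both lie inside the HOXB3 gene. HOXB13, the prostate gene at the far 5′ end, and HOXB-AS4, which lies beside HOXB9, had 0 reads in 9 libraries.

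HOXC lies on chromosome 12 on the plus strand. HOXC10, at chr12:53985146-53990279, which with its paralogs specifies lumbar motor neurons in the mouse, had 2569.8, 2314 and 1454 normalised reads in OV90, 971, 893 and 810.1 in OV90CisR1 and 1013, 1232 and 1049.5 in OV90CisR2. OV90 replicate 3 was the lowest of its group and still above all 6 resistant libraries. It fell in OV90CisR1 (log2 fold change -1.21 ± 0.19 (SE), adjusted p = 0.0034), a call kept in all 23 alternatives, and in OV90CisR2 (log2 fold change -0.91 ± 0.19 (SE), adjusted p = 0.029), a call lost without OV90 replicate 1 or 2 or any 1 of the OV90CisR2 libraries, with adjusted p up to 0.17. No other listed gene overlaps its 3′ end.

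HOXC6, a gene of the thoracic and forelimb levels, had 1484, 1734 and 1509 normalised reads in OV90, 937, 1029 and 1158 in OV90CisR1 and 1329, 1244 and 1341 in OV90CisR2. HOXC6 fell in OV90CisR1 (log2 fold change -0.60 ± 0.12 (SE), adjusted p = 0.011), a call lost with only the groups compared (adjusted p = 0.053). In OV90CisR2 its adjusted p was 0.29. Its 3′ end lies inside the HOXC4 and HOXC5 genes, and all 3 have the same start in RefSeq. HOXC8, which specifies brachial motor neurons in the mouse, had 1261, 1711 and 1467 normalised reads in OV90, 972, 1083 and 954 in OV90CisR1 and 1184, 1105 and 1138 in OV90CisR2. The fall in OV90CisR1 was called (log2 fold change -0.55 ± 0.13 (SE), adjusted p = 0.02). That call was lost in 4 of 23 alternatives, among them without OV90 replicate 2, without OV90CisR1 replicate 1 and with only the groups compared. In OV90CisR2 its adjusted p was 0.18. HOXC9, which sets thoracic motor columns in the mouse, had 935, 1240.02 and 1078 normalised reads in OV90, 706, 854 and 851 in OV90CisR1 and 880.1, 868 and 912 in OV90CisR2, below OV90 in all 6 resistant libraries but short of the threshold (adjusted p = 0.055 and 0.32); without OV90CisR1 replicate 3, with DESeq2 or with both libraries omitted it was called lower in OV90CisR1.

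OV90CisR1 replicate 3 stood apart for the 5′ genes HOXC12 and HOXC13. HOXC12 had 1392, 1411 and 818 normalised reads in OV90, 621, 676 and 166 in OV90CisR1 and 931, 751 and 918 in OV90CisR2. The change was called in OV90CisR1 (log2 fold change -1.51 ± 0.44 (SE), adjusted p = 0.039), a call kept without that library, at a log2 fold change of -0.85, and lost without OV90 replicate 1 or 2 or any 1 of the OV90CisR2 libraries, with adjusted p up to 0.12. HOXC13, a regulator of hair keratins, had 173, 186 and 192 normalised reads in OV90, 118, 94.4 and 31.5 in OV90CisR1 and 186, 97.1 and 151 in OV90CisR2. It was called in OV90CisR1 (log2 fold change -1.36 ± 0.41 (SE), adjusted p = 0.045). Without OV90CisR1 replicate 3 the log2 fold change of HOXC13 was -0.79 and still called, and the call was lost without any 1 of the OV90 or OV90CisR2 libraries, with adjusted p up to 0.10. Neither was called in OV90CisR2 (adjusted p = 0.66 and 0.69).

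The other coding HOXC genes were not called in any comparison. HOXC11, expressed at lumbosacral levels in the mouse, had 477, 436 and 310.3 normalised reads in OV90, 307, 329 and 338 in OV90CisR1 and 384, 364 and 331 in OV90CisR2. HOXC4 had 73.01, 116 and 53.97 normalised reads in OV90, 56.8, 59.4 and 39.3 in OV90CisR1 and 69.6, 52.5 and 66.9 in OV90CisR2. HOXC5 had 35.99, 55.5 and 32.4 normalised reads in OV90, 22.7, 27.6 and 53.9 in OV90CisR1 and 45.03, 51.6 and 40.5 in OV90CisR2. All 3 had OV90CisR1 libraries that overlapped OV90.

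HOTAIR, the long noncoding RNA between HOXC11 and HOXC12 that was described as binding Polycomb repressive complexes and silencing HOXD in trans in human fibroblasts, had 222, 269.6 and 145 normalised reads in OV90, 204, 178 and 284 in OV90CisR1 and 198, 180.2 and 203 in OV90CisR2. The 3 groups overlapped, and the log2 fold change was 0.08 ± 0.24 (SE) in OV90CisR1 and -0.09 ± 0.24 in OV90CisR2, with adjusted p = 0.84 and 0.89. A difference of a size within these errors would not have been called, and larger ones may also be missed. HOTAIRM1 in OV90CisR2 against OV90, at a log2 fold change of -0.76 ± 0.19 (SE), was not called.

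The antisense transcripts of HOXC were low. HOXC-AS3, beside HOXC10, had 60.7, 43.8 and 43.2 normalised reads in OV90, 18.6, 31.8 and 37.1 in OV90CisR1 and 38.9, 40.2 and 25.5 in OV90CisR2, with both resistant lines below OV90 in all libraries and adjusted p = 0.12 and 0.46. HOXC13-AS had 26.7, 20.4 and 11.7 normalised reads in OV90, 8.26, 12.7 and 13.5 in OV90CisR1 and 15.4, 8.75 and 16.7 in OV90CisR2. HOXC-AS1 had 5.14, 4.87 and 5.40 normalised reads in OV90, 8.26, 10.6 and 14.6 in OV90CisR1 and 5.12, 7.87 and 7.04 in OV90CisR2, with adjusted p = 0.13 in OV90CisR1. HOXC-AS2 stayed at or below 5.14 normalised reads and was not tested.

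HOXA lies on chromosome 7 on the minus strand. At its 5′ end HOXA13, at chr7:27194364-27200091, which patterns digits and the lower urogenital tract, had 55.5, 59.4 and 164 normalised reads in OV90, 13.4, 15.9 and 13.5 in OV90CisR1 and 40.9, 24.5 and 27.3 in OV90CisR2. OV90 replicate 3 was far above the rest of its group, and all 6 resistant libraries were below all OV90 libraries. It fell in OV90CisR1 (log2 fold change -2.44 ± 0.40 (SE), adjusted p = 0.0036), a call kept in all 23 alternatives, with a log2 fold change between -2.71 and -1.90 over them. In OV90CisR2 it did not pass the threshold (log2 fold change -1.41 ± 0.40 (SE), adjusted p = 0.086), and it did without OV90CisR1 replicate 3, with DESeq2 and with both libraries omitted.

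HOXA9 and HOXA10, whose mouse counterparts mark oviduct and uterus, were listed at or near 0. HOXA9 had 0 reads in all libraries, and the readthrough locus HOXA10-HOXA9, which overlaps it, also had 0. How reads that fall in both were counted is not given in the sources used here, so these zeros do not show that HOXA9 was not transcribed. HOXA10 had 3, 5 and 11 reads in the 3 groups. Its 3′ end overlaps HOXA10-AS and the same readthrough locus, so its low reads carry the same limit. HOXA10-AS had 47.3, 73.00 and 80.1 normalised reads in OV90, 81.6, 75.3 and 116 in OV90CisR1 and 63.5, 103 and 80.9 in OV90CisR2. HOXA11, of uterus and kidney, had 22.6, 19.5 and 34.2 normalised reads in OV90, 20.7, 21.2 and 22.5 in OV90CisR1 and 37.9, 43.7 and 29.9 in OV90CisR2, with the OV90CisR2 libraries above all OV90CisR1 libraries and no call (adjusted p = 0.12). HOXA11-AS had 4.11, 3.89 and 10.8 normalised reads in OV90, 10.3, 23.3 and 23.6 in OV90CisR1 and 5.12, 6.998 and 13.2 in OV90CisR2, with adjusted p = 0.07 in OV90CisR1. HOTTIP, the noncoding RNA beside HOXA13 that recruits WDR5 and MLL complexes to 5′ HOXA genes, stayed at or below 6.17 normalised reads and was not tested.

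HOXA7, at chr7:27153716-27156675, had 92.5, 94.4 and 91.7 normalised reads in OV90, 67.1, 61.5 and 79.8 in OV90CisR1 and 99.3, 135 and 124 in OV90CisR2. OV90CisR1 lay below and OV90CisR2 above OV90 in all libraries, and neither difference from OV90 was called (adjusted p = 0.15 and 0.38). The difference between the resistant lines was called (log2 fold change 0.77 ± 0.19 (SE), adjusted p = 0.029), a call lost with the replicate block, without OV90CisR1 replicate 1 or 2 and without any 1 of the OV90CisR2 libraries, with adjusted p up to 0.13. HOXA-AS3, whose gene overlaps the 3′ end of HOXA7, had 63.8, 68.1 and 29.7 normalised reads in OV90, 45.5, 45.6 and 82.02 in OV90CisR1 and 45.03, 48.1 and 43.99 in OV90CisR2.

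Towards the 3′ end HOXA2, which patterns the second pharyngeal arch and the middle ear, had 102, 123 and 72.9 normalised reads in OV90, 40.3, 45.6 and 58.4 in OV90CisR1 and 60.4, 72.6 and 79.2 in OV90CisR2. HOXA2 fell in OV90CisR1 (log2 fold change -1.01 ± 0.25 (SE), adjusted p = 0.021). That call was lost without OV90 replicate 1 or 2 or OV90CisR1 replicate 1 or 2 and with only the groups compared, with adjusted p up to 0.072. In OV90CisR2 the adjusted p was 0.37. HOXA5, of lung and breast, had 1142, 1118 and 557 normalised reads in OV90, 716, 776 and 583 in OV90CisR1 and 674, 740.03 and 783 in OV90CisR2, with OV90 replicate 3 below and the other OV90 libraries above all 6 resistant libraries. It was not called (adjusted p = 0.3 and 0.59), and it was called lower in both lines without OV90 replicate 3.

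The HOXA members HOXA3, HOXA4, HOXA6 and HOXA-AS2 were not called in any comparison. HOXA3, which is needed for thymus and parathyroid in the mouse, had 384, 339 and 379.6 normalised reads in OV90, 387, 387 and 184 in OV90CisR1 and 472, 339 and 476 in OV90CisR2, with OV90CisR1 replicate 3 below all others. HOXA4 had 132, 201 and 140.3 normalised reads in OV90, 176, 182 and 279.8 in OV90CisR1 and 139, 130.3 and 167 in OV90CisR2. HOXA6 had 21.6, 22.4 and 15.3 normalised reads in OV90, 23.8, 27.6 and 35.96 in OV90CisR1 and 31.7, 36.7 and 18.5 in OV90CisR2. The 3′ ends of HOXA4, HOXA5 and HOXA6 lie inside the HOXA3 gene and an antisense gene. HOXA-AS2 had 22.6, 33.1 and 13.5 normalised reads in OV90, 21.7, 21.2 and 21.3 in OV90CisR1 and 20.5, 34.1 and 19.4 in OV90CisR2.

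HOTAIRM1, at chr7:27096094-27100258, a noncoding RNA beside HOXA2 that is induced by retinoic acid in myeloid cells, had 2128, 2215 and 1279.9 normalised reads in OV90, 2058, 2154 and 2115 in OV90CisR1 and 1148, 925 and 1164 in OV90CisR2. OV90CisR2 lay below every library of the other groups, and OV90CisR1 overlapped OV90, whose replicate 3 was low. The difference between the resistant lines was called (log2 fold change -0.97 ± 0.19 (SE), adjusted p = 0.011), a call lost without OV90CisR2 replicate 2. Against OV90 the change in OV90CisR2 fell short of the threshold (log2 fold change -0.76 ± 0.19 (SE), adjusted p = 0.059), and it passed without OV90 replicate 3, without OV90CisR1 replicate 3, with edgeR and with DESeq2. The neighbouring coding gene HOXA2 did not differ between the resistant lines past the threshold (adjusted p = 0.17). No other listed gene overlaps the 3′ end of HOTAIRM1.

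**Figure D5:**
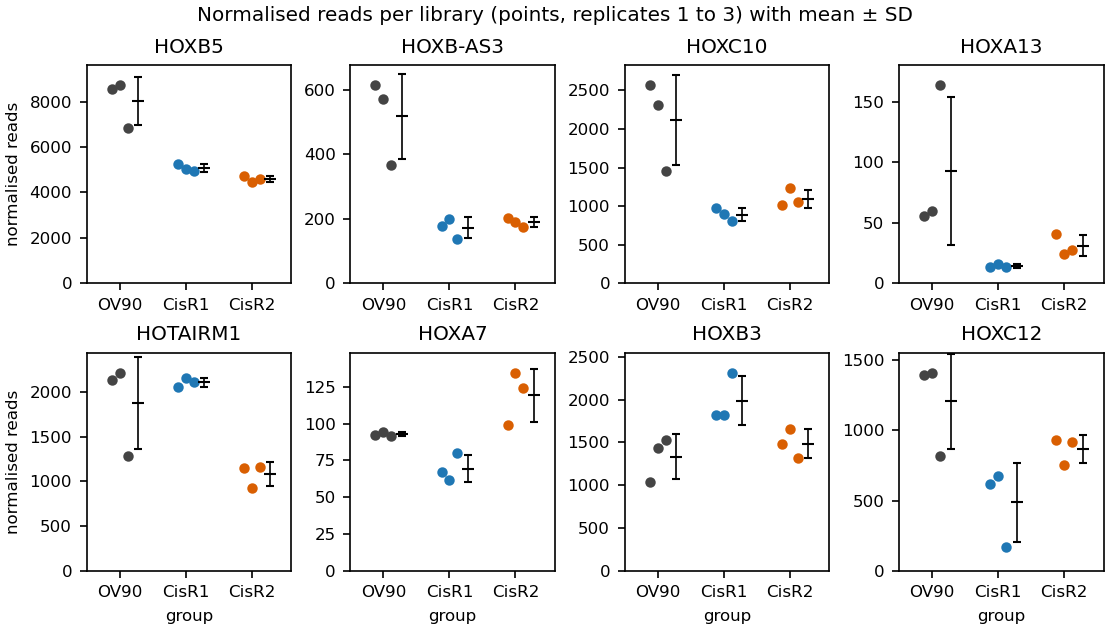
Normalised reads of 8 members outside HOXD in each library, with replicates 1 to 3 from left to right and the mean with its SD (n = 3) beside them. CisR1 and CisR2 stand for OV90CisR1 and OV90CisR2. HOXB5, HOXB-AS3 and HOXC10 are lower in both resistant lines than in OV90, HOTAIRM1 is lower in OV90CisR2, and single libraries stand apart for HOXA13 (OV90 replicate 3) and HOXC12 (OV90CisR1 replicate 3).

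Summed over paralogs, HOXD11 and HOXC11 made up most of group 11 in OV90CisR2, with means of 339 and 359 of a summed mean of 736. Paralog group 11 held 435 ± 82.3 normalised reads in OV90, 387 ± 29.1 in OV90CisR1 and 736 ± 43.1 in OV90CisR2 (SD, n = 3). Group 10 held 2114 ± 586, 909 ± 77.02 and 1241 ± 131, with HOXC10 as its main source. Group 13 held 277 ± 68.4, 99.4 ± 44.8 and 198 ± 53.7, and group 5, mainly HOXB5, held 9015 ± 1389, 5809 ± 217 and 5357 ± 106. These sums are reads of different genes added together and were not tested.

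Genes of the HOX pathway were read from lists chosen with earlier results of these data known, so their counts are descriptions. The ParaHox genes, close relatives of the HOX genes outside the clusters, were at or near 0: 0 of 6 were tested, 5 of 6 had 0 reads everywhere, and CDX2 had 15 reads, all in OV90CisR2. Of 10 tested genes that flank the clusters, limma called 0 in either line against OV90. In OV90CisR1 edgeR and DESeq2 also called 0 and 0 had an unadjusted p under 0.05. In OV90CisR2, 3 had an unadjusted p under 0.05, edgeR called 1 higher, and DESeq2 called 1 higher and 1 lower. These genes were LNPK, MTX2, ATP5MC2, CALCOCO1, CBX5, HIBADH, SKAP1, SKAP2, SMUG1 and TTLL6, with limma adjusted p from 0.16 (CBX5) in OV90CisR1 and from 0.053 (SKAP1) in OV90CisR2 upwards. Between the resistant lines SKAP1, beside HOXB, was higher in OV90CisR2, with 29.8, 25.3 and 49.5 normalised reads in OV90, 33.1, 30.8 and 39.3 in OV90CisR1 and 66.5, 98.8 and 69.5 in OV90CisR2 (log2 fold change 1.15 ± 0.29 (SE), adjusted p = 0.031).

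Polycomb complexes keep silent HOX clusters repressed, and the list used here also holds the demethylases KDM6A and KDM6B, which are not subunits of them. Among 28 tested genes of this list, 1 was called lower in OV90CisR1 and 1 higher in OV90CisR2. Over all tested genes, 7.29% were called lower in OV90CisR1 and 2.35% higher in OV90CisR2. PCGF5, a component of Polycomb repressive complexes, had 120.3, 163 and 103 normalised reads in OV90, 14.5, 2.12 and 15.7 in OV90CisR1 and 77.8, 70.9 and 89.7 in OV90CisR2 and fell in OV90CisR1 (log2 fold change -3.77 ± 0.53 (SE), adjusted p = 0.0017). CBX2, a reader of Polycomb marks, had 322, 274 and 322 normalised reads in OV90, 293, 283 and 351 in OV90CisR1 and 486, 485 and 483 in OV90CisR2 and rose in OV90CisR2 (log2 fold change 0.67 ± 0.14 (SE), adjusted p = 0.024). In OV90CisR2 against OV90CisR1, 5 of 28 were higher, beside 5.16% of all tested genes. They were PCGF5, EED, RBBP7, CBX2 and, named after its values were seen, JARID2.

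Among 14 tested trithorax genes, which keep active HOX genes on, 3 were higher and 1 lower in OV90CisR1. Over all tested genes, 8.54% were called higher and 7.29% lower there. In OV90CisR2 against OV90 limma, edgeR and DESeq2 called 0 of the 14, with 3 at an unadjusted p under 0.05. KMT2A, the methyltransferase MLL, had 1426, 1653 and 1738 normalised reads in OV90, 2473, 2491 and 2408 in OV90CisR1 and 1998, 2008 and 1930.2 in OV90CisR2 and rose in OV90CisR1 (log2 fold change 0.62 ± 0.11 (SE), adjusted p = 0.0066). KMT2B, with an adjusted p of 0.049, and MEN1, a subunit shared by both, with 0.033, were the other rises, and DPY30 had a log2 fold change of -0.86 ± 0.19 (SE; adjusted p = 0.015). MEN1 was lower in OV90CisR2 than in OV90CisR1 (log2 fold change -0.59 ± 0.15 (SE), adjusted p = 0.032).

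Of 12 tested retinoic acid genes, a pathway that induces 3′ HOX genes, ALDH1A3 was lower in OV90CisR1 (log2 fold change -0.67 ± 0.20 (SE), adjusted p = 0.045) and ALDH1A1 higher in OV90CisR2 (log2 fold change 1.18 ± 0.24 (SE), adjusted p = 0.022). Both were higher in OV90CisR2 than in OV90CisR1. Both enzymes make retinoic acid from retinal. Over all tested genes, 7.29% were called lower in OV90CisR1 and 2.35% higher in OV90CisR2, against OV90. In OV90CisR2 against OV90CisR1 5.16% were called higher.

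Markers of fibroblasts, which can express HOXD genes according to their site in the body, also moved with the groups. Of 10 fibroblast and endothelial markers, 6 were tested. Against OV90, 3 were higher and 1 lower in OV90CisR1, beside 8.54% and 7.29% of all tested genes. In OV90CisR2, 3 were higher than in OV90, beside 2.35% of all tested genes. The called markers did not share 1 direction. POSTN, a matrix protein, had 3.08, 2.92 and 2.70 normalised reads in OV90, 42.4, 56.2 and 46.1 in OV90CisR1 and 211, 149.6 and 201 in OV90CisR2. LUM, a matrix proteoglycan, had 33.9, 34.1 and 56.7 normalised reads in OV90, 101, 116 and 20.2 in OV90CisR1 and 410.4, 387 and 482 in OV90CisR2. DCN, another, had 29.8, 43.8 and 35.98 normalised reads in OV90, 99.2, 92.3 and 50.6 in OV90CisR1 and 233, 192 and 209 in OV90CisR2. These 3 were highest in OV90CisR2, as the HOXD genes were. COL3A1, a fibrillar collagen, had 3071, 2804 and 3541 normalised reads in OV90, 10330.00, 10527 and 5469.7 in OV90CisR1 and 3898, 2565 and 3909 in OV90CisR2, higher in OV90CisR1 than in OV90 (log2 fold change 1.43 ± 0.25 (SE), adjusted p = 0.0053) and lower in OV90CisR2 than in OV90CisR1 (log2 fold change -1.31 ± 0.25 (SE), adjusted p = 0.0094). ACTA2, a smooth muscle actin, had 10.3, 10.7 and 12.6 normalised reads in OV90, 2.07, 0 and 6.74 in OV90CisR1 and 29.7, 34.1 and 21.99 in OV90CisR2, lower in OV90CisR1 than in OV90 (log2 fold change -2.08 ± 0.63 (SE), adjusted p = 0.045) and higher in OV90CisR2 than in OV90CisR1 (log2 fold change 3.34 ± 0.63 (SE), adjusted p = 0.0085). COL1A1, another collagen, had 82.3, 93.4 and 172 normalised reads in OV90, 74.4, 108 and 78.7 in OV90CisR1 and 121, 69.98 and 113 in OV90CisR2 and was not called in any comparison. COL1A2 had 3, 11 and 2 reads in the 3 groups and was not tested. The summed level of the list was 2991 to 3822 in OV90, 5676 to 10903 in OV90CisR1 and 3399 to 4936 in OV90CisR2, with PECAM1 and VWF at 0. This sum mainly reflects COL3A1, whose means were 3139, 8776 and 3457. The part of these markers in the HOXD result was not tested.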

How the data were processed

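RNA of 9 libraries (3 each of OV90, OV90CisR1 and OV90CisR2) was isolated with Trizol, made into libraries with a QuantSeq 3′ kit and sequenced single-end, per the labels' protocols. The authors deposited 1 table of normalised signal per gene symbol; the tools were Bowtie2, bedtools and edgeR and the build was GRCh38, per the submitters' processing notes. Tool versions, annotation, counting rule and strand handling were not given. Each value divided by the smallest value of its library was whole (tolerance 1e-06), so whole reads were recovered.

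Genes with at least 1 CPM in at least 3 libraries (14233) were tested on the scale log2(value + 1). Limma 3.58.1 (R 4.3.3) was fitted to all 9 libraries with trended variances and Benjamini-Hochberg adjustment. The alternatives were pseudocounts of 0.1 and 5, other filters, TMM and quantile scaling, only the groups compared, a replicate block, robust and untrended variances, array quality weights, edgeR 4.0.16, DESeq2 1.42.0 and omitted libraries. The procedure was tested on simulated data. The members, gene lists and naming rule (all members, all tested cluster neighbours and transcripts, and up to 4 called genes per list and comparison; JARID2 and COL1A1 were added after their values were seen) were chosen with earlier results of these data known. Values of 1 member and of a list of cofactors are not reported here. Gene coordinates and promoters came from RefSeq (GRCh38.p14), strands from GENCODE v29, and an overlap was another listed gene over the last 200 bases. All replicate pairs differed by more than counting noise (chi-square over its degrees of freedom at least 2.06).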

Additional observations from a re-analysis of the deposited data

Results flagged for a closer look

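The effects of the resistant lines against OV90 differed from each other, by the limma comparison of OV90CisR2 with OV90CisR1 at an adjusted p under 0.05, for 8 members, and 4.9% to 5.16% of all tested genes were called in each direction. The difference of effects, OV90CisR2 minus OV90CisR1 on the log2 scale, was 4.66 for HOXD8 (adjusted p = 0.0019), 4.57 for HOXD3 (0.00097), 3.48 for HOXD9 (0.011), 3.08 for HOXD10 (0.0014), 3.06 for HOXD11 (0.0063) and 2.48 for HOXD13 (0.025). It was 0.769 for HOXA7 (adjusted p = 0.029), whose OV90CisR1 libraries lay below and OV90CisR2 libraries above those of OV90, and -0.973 for HOTAIRM1 (adjusted p = 0.011), whose OV90CisR2 libraries lay below those of the other groups. In each of the 8 the 3 libraries of 1 line lay on 1 side of the 3 of the other. That separation adds no support, since the 8 were chosen by a test on these same libraries. HOXD3, HOXD8, HOXD9 and HOXD13 also passed the filter on low values only through OV90CisR2.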

How the results depend on the processing

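No call among the members changed direction under any of the 23 alternatives. Of 697 values of the 31 calls under the alternatives, 628 stayed past the threshold and 69 did not. In OV90CisR1 against OV90, the 14 called members became 6 with only the groups compared, 25 with array quality weights and 24 with OV90 replicate 3 and OV90CisR1 replicate 3 omitted. Leaving out each library in turn gave 8 to 20. With only the groups compared, HOXA2, HOXB3, HOXB5, HOXB7, HOXC6, HOXC8, HOXC12 and HOXC13 lost their calls. Over all genes 771 were called there, and with all 9 libraries fitted 1215 were called higher and 1037 lower. In OV90CisR2 against OV90, the 9 became 22 with quality weights and 22 with both libraries omitted, and 6 to 12 with each library left out. In OV90CisR2 against OV90CisR1, the 8 became 5 with a pseudocount of 0.1, 18 with quality weights and 15 with both libraries omitted. With each library left out they became 2 to 10. The lowest values came without an OV90CisR2 library, when HOXD3 and HOXD8 no longer passed the filter and 42 members were tested. HOXD9, HOXD13 and HOXA7 also lost their calls there. Over all genes 405, 601 and 391 were called in this comparison without OV90CisR2 replicate 1, 2 or 3. With all 9 libraries 735 were called higher and 698 lower. Over all genes 4220, 3538 and 4226 were called with quality weights. With a pseudocount of 0.1, 1266 genes were called in OV90CisR2 against OV90CisR1. With each library left out, 939 to 2459 genes were called in OV90CisR1 against OV90 and 133 to 1309 in OV90CisR2 against OV90. The numbers of detected members, 36, 40 and 42, stayed within 1.5 times at 5 CPM (29, 27 and 33) and at 1 read (39, 43 and 47).

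With the replicate block, 12, 9 and 7 members were called, and 1615, 287 and 875 genes over the whole table. Deviations of same-numbered libraries from their group means correlated at -0.31 to 0.09, so the numbers were not taken as pairs. Calls kept in every alternative in which the gene was tested were HOXD10 and HOXD11 in both lines against OV90, HOXA13, HOXB-AS3, HOXB9 and HOXC10 in OV90CisR1, HOXB-AS3, HOXB5 and the 6 HOXD genes in OV90CisR2, and HOXD3, HOXD8 and HOXD10 between the lines. HOXD3 was tested in 19 of the alternatives, HOXD8 in 20 and HOXD13 in 22, fewer than the other genes listed. HOXD3 and HOXD8 failed the filter without an OV90CisR2 library, where HOXD9 and HOXD13 lost their calls between the lines. Whether the calls of HOXD3 and HOXD8 would be kept there could not be tested. Being kept is therefore partly set by the filter for these genes. Depth limits HOXD in OV90, where 11 reads in all allow ratios only within wide intervals.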
